A study of Mus musculus with 2 samples.

Results

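The 10 genes described here handle the amino acid arginine. They were picked by name, and all 10 have a row among the 23420 genes of the count table. They comprise the arginases Arg1 and Arg2, the nitric oxide synthases Nos1, Nos2 and Nos3, the arginine-making enzymes Ass1 and Asl, ornithine decarboxylase (Odc1) and the cationic amino acid transporters Slc7a1 and Slc7a2. The set was chosen by role and with the fold changes and p-values of these same 6 libraries (knockout-labelled against wild type) already known. The members' differences below are therefore descriptions, and their p-values, which come from a fit over all genes, lend them no independent support.

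The libraries are polyA-selected RNA of mouse retinal pigment epithelium and choroid, which together support and feed the outer retina. Untreated mice aged 11 to 13 months were used, 3 per genotype, and each library pools 2 eyes. One group has the genotype AhR -/- (strain B6.129-AhRtm1Bra/J), in which Ahr, the gene of a ligand-activated transcription factor, was targeted. The other has the genotype AhR +/+ (strain C57BL6/J). The labels name no promoter or cell type for the targeted allele and do not say whether the groups are littermates. Where 3 values are given for a group below, they belong to its animals 1, 2 and 3 in that order.

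Arginine is a substrate for which several enzymes compete. Nitric oxide synthases turn it into citrulline and nitric oxide, a gas that relaxes vessels and, made by endothelium, keeps the choroidal circulation open. Arginases split it into urea and ornithine, and ornithine decarboxylase makes from ornithine the first polyamine, putrescine. Citrulline can be turned back into arginine by Ass1 and then Asl, and the transporters bring arginine in from outside the cell.

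The libraries hold 18058725 to 28692624 counts on genes. Ahr itself stood at 42.5 ± 2.55 CPM (counts scaled to library size and a common total) in libraries labelled knockout and at 22.0 ± 3.51 CPM in the wild type (SD, n = 3 each). The knockout-labelled libraries thus hold more Ahr reads, not fewer, although a gene-level count does not reveal a missing exon. The libraries are therefore called knockout-labelled. All 8 markers of pigment epithelium fixed for the tissue check were counted, and their summed level ranged from 20864 to 38324 CPM. Markers of rods (6974 to 15142 CPM), skeletal muscle (763 to 3120 CPM) and the epithelium of cornea and conjunctiva (2788 to 16462 CPM) were counted too. The tally of alignments to more than 1 place made up 22.9% to 25.1% of all tallied entries, genes included, in knockout-labelled libraries. In wild-type libraries it made up 18.7% to 19.4%. A read may enter that tally more than once, and such reads are not in the gene counts.

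Of the 10 members, 8 passed the filter on low counts and were tested, and Ass1 and Nos2 did not. A gene was called at a Benjamini-Hochberg adjusted p under 0.05 in edgeR's quasi-likelihood test over 15796 genes. Of the 8 tested members 0 were called, where 0.0506% of all genes were (8 genes, 0.0253% higher and 0.0253% lower). Unadjusted p-values under 0.05 were found for 3 members, Arg1, Nos3 and Odc1, and for 14.2% of all genes (7.55% higher and 6.62% lower). The groups did not overlap for these 3 members either, nor for 20.0% of all genes (1585 genes higher, and 1573 genes or 9.96% lower). DESeq2 and the edgeR exact test each called these 3 members and 3.25% and 2.26% of all genes, and limma-voom called Arg1 and 0.0823% of all genes. The authors' deposited table lists these 3 at an FDR under 0.05, where it lists 2.37% of its genes. The median log2 fold change, knockout-labelled over wild type, was -0.18 over the 8 tested members and 0.01 over all genes tested.

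**Figure D1:**
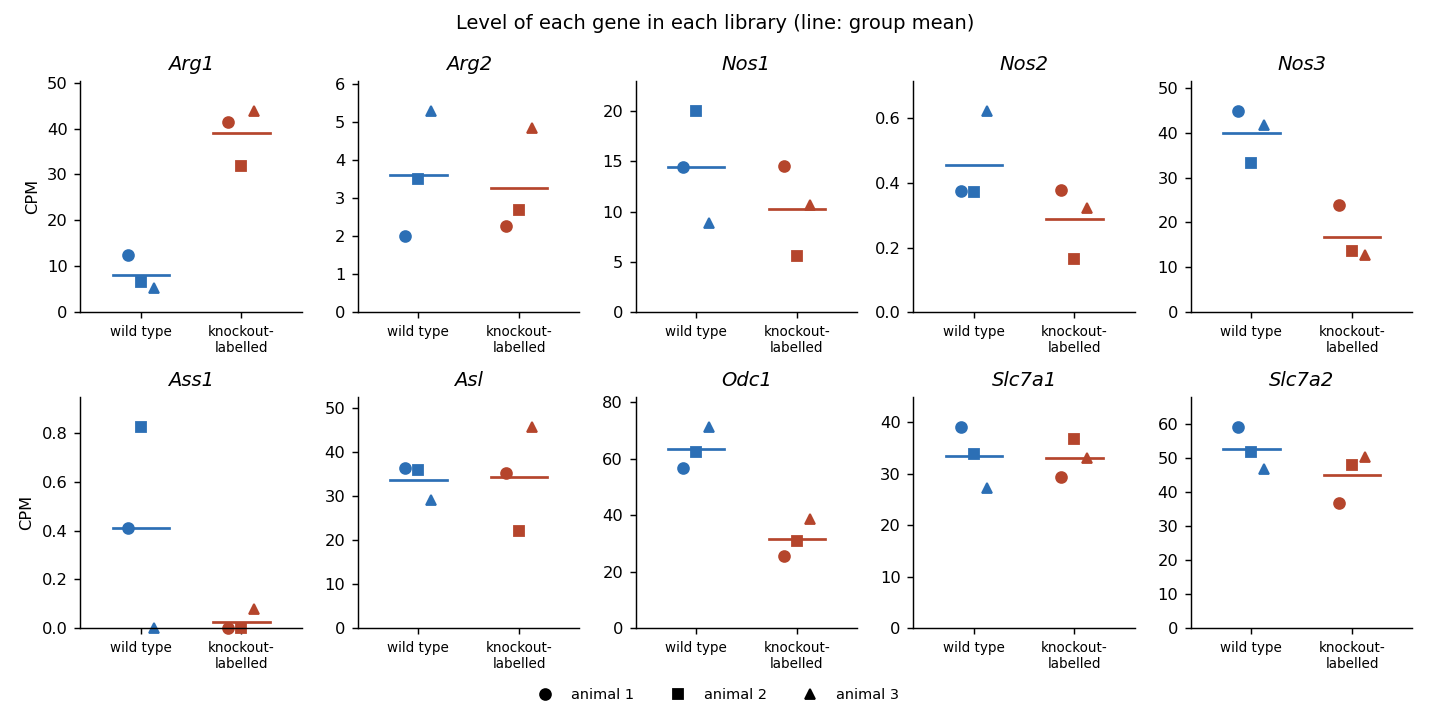
CPM (y axis, from 0, own scale per gene) of each of the 10 genes in the 6 libraries, with 1 point per animal and a line at the group mean. Arg1 is above every wild-type library in all 3 knockout-labelled libraries, Nos3 and Odc1 are below, and the points of the other genes overlap.

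Arg1, the cytosolic arginase of the liver urea cycle, which some macrophages also make, had the largest absolute log2 fold change of the 8 tested members. It lies on chromosome 10, at 24915221 to 24927484 on the minus strand (GRCm38, the assembly also called mm10), and no exon of another annotated gene overlaps its exons. Arg1 stood at 41.5, 31.8 and 43.8 CPM in the knockout-labelled group. The wild-type libraries held 12.5, 6.53 and 5.29 CPM. Every knockout-labelled library was thus above every wild-type library, and wild-type animal 1 was the highest of its group. The group means were 39.0 ± 6.34 and 8.11 ± 3.87 CPM (SD, n = 3 each), which is 2.27 on the log2 scale (standard error, SE, 0.31). Of all genes tested, 0.665% had a larger absolute log2 fold change. The gene narrowly missed the threshold in edgeR's quasi-likelihood test (adjusted p = 0.0502).

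Whether Arg1 was called depended on the settings. Over 16 alternatives its log2 fold change ran from 2.01 to 2.72, and 8 of them called it, with adjusted p-values over all 16 from 2.07e-09 to 0.265. Leaving out knockout-labelled animal 1 gave a call (edgeR adjusted p = 0.019), where 4.95% of all genes were called, and so did leaving out wild-type animal 1 (edgeR adjusted p = 0.0112), where 0.0559% were. Leaving out any of the other 4 libraries did not give a call. With no filter beyond 1 count it was called among 0.122% of all genes. In the authors' deposited table its log2 fold change is 2.30 with an FDR of 1.30e-10.

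Arg2, the mitochondrial arginase, did not share this pattern. It lies on chromosome 12, at 79130777 to 79156301 on the plus strand. Its level was 2.26, 2.69 and 4.83 CPM in the knockout-labelled group, against 1.99, 3.51 and 5.29 CPM in the wild type. The ranges overlapped almost fully, and the log2 fold change was -0.14 (SE 0.50, edgeR adjusted p = 0.929). Of its exon length, 28.1% overlaps genes on the other strand, among them Vti1b at 175 ± 12.2 and 164 ± 10.9 CPM (SD, n = 3 each), and without a stated strand setting the reads there cannot be assigned for certain. Per kilobase of exon, Arg1 was 5.81 to 11.8 times the level of Arg2 in knockout-labelled libraries and 0.641 to 4.03 times in wild-type libraries. In wild-type animal 3, Arg2 was the more abundant arginase per length.

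Markers of other cell types differed in level between the same libraries. Of 9 neutrophil markers 5 were tested, 4 of those had a log2 fold change above 0, and 1, Ltf, was called. The summed level of the list was 57.7 to 124 CPM in knockout-labelled and 6.01 to 11.8 CPM in wild-type libraries, while Ngp, Elane and Mpo, which encode granule proteins, were at 0 in all 6 libraries. Most of that sum in the knockout-labelled libraries was Ltf, lactoferrin of neutrophil granules and of glandular secretions such as tears, at 88.0, 46.0 and 62.2 CPM. Of 7 erythroid markers 2 were tested, both above 0 and 0 called. The list summed to 1118, 56.1 and 78.4 CPM in the knockout-labelled group, against 4.32, 20.7 and 33.7 CPM in the wild type. Hba-a1 and Hba-a2, near-identical copies, are listed at 0, and reads that align to more than 1 place are not in the gene counts. All 11 markers of cornea and conjunctiva epithelium lay above 0 and 0 were called, with a summed level of 4180 to 16462 CPM against 2788 to 6685 CPM. With the epithelial marker level as a covariate the log2 fold change of Arg1 was 2.03 (edgeR adjusted p = 0.0743). All 11 markers behind this covariate lay above 0, so it partly follows genotype. Here and below, a change of estimate with it does not measure a share due to epithelium. Macrophage markers, 9 tested, overlapped between groups at 2271 to 2707 CPM against 1802 to 2812 CPM. Arg1 was also set against the mean log2 CPM of each list's tested markers. Relative to the 5 tested neutrophil markers it lay at 1.77, 3.77 and 2.77 in the knockout-labelled group, against 3.99, 2.20 and 3.42 in the wild type. These overlapped, with a difference of -0.43. The neutrophil mean was itself low in the wild type, at -0.34, 0.51 and -1.01 log2 CPM. A marker can also pass the filter through the knockout-labelled group alone, so this comparison decides nothing about Arg1. Relative to the epithelial markers it lay at -2.82, -4.87 and -4.13, against -5.11, -4.63 and -5.35, which overlapped too, with a difference of 1.09. Relative to the macrophage markers it lay at -0.93, -0.91 and -0.43, against -2.29, -3.36 and -3.30, which did not overlap. In whole tissue, more cells of a type and more RNA per cell cannot be told apart.

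**Figure D2:**
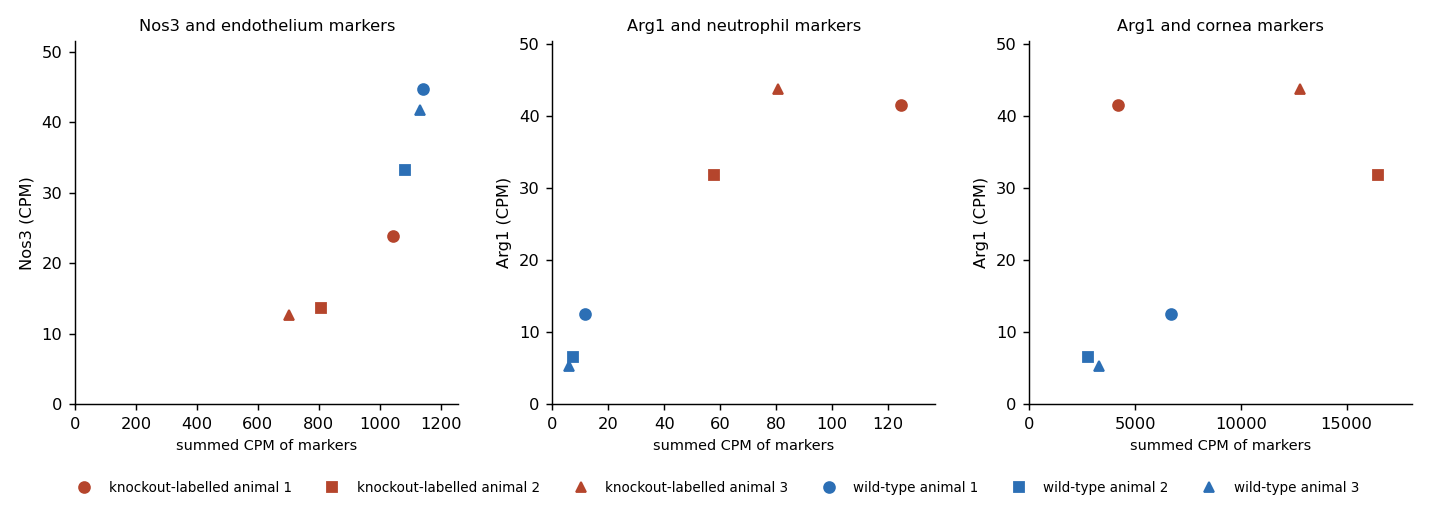
Level of Nos3 or Arg1 (y axis, CPM) against the summed CPM of endothelium, neutrophil or cornea and conjunctiva epithelium markers (x axis) in the same library, with 1 point per animal. The endothelial sums are 701 to 1043 CPM in knockout-labelled and 1084 to 1143 CPM in wild-type libraries, the neutrophil sums do not overlap either, and the epithelial sums (4180 to 16462 against 2788 to 6685 CPM) do.

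Nos3, the nitric oxide synthase of endothelium, had lower values in each knockout-labelled library than in any wild-type library. It lies on chromosome 5, at 24364810 to 24384474 on the plus strand. Nos3 stood at 23.9, 13.7 and 12.7 CPM in the knockout-labelled group, against 44.8, 33.3 and 41.7 CPM in the wild type. The groups did not overlap, and knockout-labelled animal 1 lay nearest to the wild type. The means were 16.8 ± 6.17 and 39.9 ± 5.95 CPM (SD, n = 3 each), which is -1.25 on the log2 scale (SE 0.25) and missed the threshold (edgeR adjusted p = 0.128). Without knockout-labelled animal 1 it was called at -1.60 (edgeR adjusted p = 0.0117), and over all alternatives it ran from -1.60 to -1.03 with adjusted p-values of 0.000881 to 0.382. In the authors' deposited table it is -1.24 with an FDR of 0.000374.

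Of the exon length of Nos3, 32.3% overlaps genes on the other strand, among them Atg9b, which stood at 4.78 ± 3.28 and 2.50 ± 0.77 CPM (SD, n = 3 each), below Nos3 in every library. Of 11 endothelial markers 10 had a log2 fold change below 0, 0 were called, and their summed level was 701 to 1043 CPM in knockout-labelled and 1084 to 1143 CPM in wild-type libraries. Against the mean log2 CPM of those 11 markers, Nos3 lay at -1.66, -2.16 and -2.05 in the knockout-labelled group and at -0.90, -1.29 and -1.02 in the wild type. The Nos3 level relative to endothelial markers did not overlap between groups either, and differed by -0.89 on the log2 scale. Nos3 was listed with its difference known, so this comparison is a description. Whether fewer endothelial cells or less Nos3 RNA per cell lay behind it was not tested. With the correction for transcript GC content the log2 fold change of Nos3 was -1.05, and with the epithelial covariate -1.03.

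The other synthases overlapped between groups. Nos1, the synthase of neurons and skeletal muscle, stood at 14.5, 5.60 and 10.7 CPM in the knockout-labelled group, against 14.4, 20.0 and 8.88 CPM in the wild type. Its log2 fold change was -0.49 (SE 0.38, edgeR adjusted p = 0.611). With the epithelial covariate it was -0.01, and leaving out 1 library moved it between -0.82 (no knockout-labelled animal 1) and -0.18 (no wild-type animal 2). It lies on chromosome 5, at 117781032 to 117958840 on the plus strand, and 2.40% of its exon length overlaps an antisense gene. Nos2, on chromosome 11 at 78920787 to 78960254 on the plus strand, is the inducible synthase of activated immune cells. It had 3 to 18 counts per library, at 0.288 ± 0.11 and 0.457 ± 0.14 CPM (SD, n = 3 each), too few for the filter. Per exon length Nos3 was the most abundant of the synthases in all 6 libraries, with 80.5% ± 5.55 of their summed level in the knockout-labelled group and 87.1% ± 5.38 in the wild type (SD, n = 3 each). Nos1 made up 18.2% ± 5.14 and 12.0% ± 5.54, and Nos2 1.31% ± 0.42 and 0.941% ± 0.30. The shares overlapped between groups. They are approximate, because 32.3% of the Nos3 exon length overlaps genes on the other strand.

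**Figure D3:**
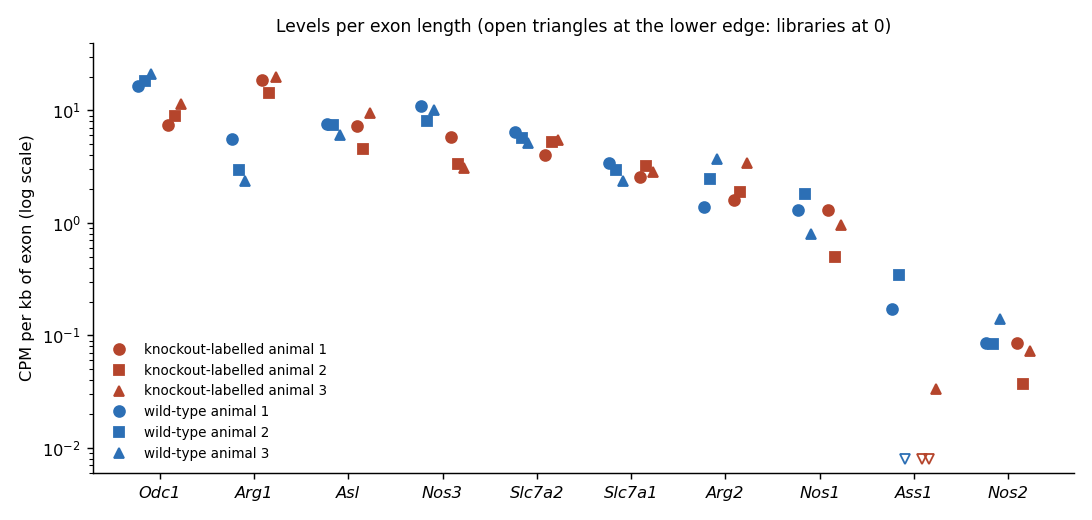
CPM per kilobase of exon (y axis, log scale) of the 10 genes in the 6 libraries, ordered by their mean over all libraries. Odc1 and Arg1 lead, and every value of Nos2 and Ass1 lies below every value of the other 8 genes, with Ass1 at 0 in 3 libraries (open triangles at the lower edge).

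The arginine-making enzymes were unequal in level. Asl, argininosuccinate lyase, which releases arginine in the last step, stood at 35.2, 22.0 and 45.7 CPM in the knockout-labelled group, against 36.3, 35.9 and 29.0 CPM in the wild type. Its groups overlapped and its log2 fold change was 0.03 (SE 0.24, edgeR adjusted p = 0.973). Ass1, argininosuccinate synthase, which makes the substrate of Asl, had 0, 0 and 2 counts in knockout-labelled animals 1 to 3 and 11, 20 and 0 counts in wild-type animals 1 to 3. A count of 0 allows a level of up to 0.126, 0.165 and 0.104 CPM in knockout-labelled animals 1 and 2 and wild-type animal 3, a limit that covers counting error only. Per exon length Asl averaged 7.10 ± 2.46 and 6.99 ± 0.85 CPM per kb, against 0.171 ± 0.17 CPM per kb for Ass1 in the wild type (SD, n = 3 each). Asl lies on chromosome 5, at 130011258 to 130029247 on the minus strand, and Ass1 on chromosome 2, at 31470207 to 31520672 on the plus strand, and no exon of another gene overlaps either.

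Odc1, which makes putrescine from ornithine, had the same order of groups as Nos3. It lies on chromosome 12, at 17544794 to 17551505 on the plus strand, 17.9 Mb from Ahr, and Arg2 lies on the same chromosome 43.6 Mb from Ahr. Odc1 stood at 25.4, 30.7 and 38.6 CPM in the knockout-labelled group, against 56.6, 62.5 and 71.1 CPM in the wild type. The groups did not overlap. The means were 31.6 ± 6.65 and 63.4 ± 7.32 CPM (SD, n = 3 each), or -1.01 on the log2 scale (SE 0.18), and the gene missed the threshold (edgeR adjusted p = 0.118). Over the alternatives it ran from -1.18 to -0.87, with adjusted p-values from 0.000208 to 0.351, and it was called without knockout-labelled animal 1 (edgeR adjusted p = 0.0272). In the authors' deposited table it is -1.002 with an FDR of 0.000455. With the epithelial covariate its log2 fold change was -1.13, and with the GC correction -1.05.

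The sequence just upstream of a RefSeq start of Odc1 is shown because the receptor targeted here binds DNA with the core letters GCGTG. Odc1 is the member among Arg1, Nos3 and Odc1 for which RefSeq's promoter table (GRCm38.p6) gave a start. The window is the 250 bases before that start, chr12:17544623-17544872 on the plus strand, with GCGTG and its reverse complement CACGC in capitals. GENCODE starts the gene at 17544794, so the end of the window lies inside the gene as annotated there. The upstream window of the transporter gene Slc7a1, chr5:148399905-148400154 on the minus strand, is set beside it as that of a member whose groups overlapped.
Odc1: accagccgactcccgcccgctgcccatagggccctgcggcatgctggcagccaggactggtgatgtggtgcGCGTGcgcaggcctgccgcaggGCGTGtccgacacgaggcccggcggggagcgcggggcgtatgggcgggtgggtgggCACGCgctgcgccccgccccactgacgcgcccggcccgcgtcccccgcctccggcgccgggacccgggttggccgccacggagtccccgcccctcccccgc
Slc7a1: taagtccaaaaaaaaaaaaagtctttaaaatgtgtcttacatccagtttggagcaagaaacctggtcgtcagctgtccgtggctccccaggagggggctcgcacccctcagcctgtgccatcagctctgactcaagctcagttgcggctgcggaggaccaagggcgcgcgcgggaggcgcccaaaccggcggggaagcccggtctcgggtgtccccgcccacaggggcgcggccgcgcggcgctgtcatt
The Odc1 window holds 3 matches, which begin 101 to 179 bases before the RefSeq start, and the Slc7a1 window holds 0. Across all 32851 promoter windows of that length in the table, 28.2% hold at least 1 match on either strand. The share of windows with 3 or more matches was not counted, and base composition was not taken into account. A second Slc7a1 window in the promoter table also held 0 matches. Of the other members with an entry, Ass1 had 2 matches and Nos1 had 0. The Nos1 window and the second Slc7a1 window lie inside their genes as GENCODE annotates them, and the Ass1 window ends inside its gene. A match of letters is a description of the sequence and does not show binding.

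The arginine transporters overlapped between groups. Slc7a1, the broadly made transporter CAT-1, stood at 29.4, 36.7 and 33.0 CPM in the knockout-labelled group, against 39.1, 33.8 and 27.2 CPM in the wild type. Its log2 fold change was -0.01 (SE 0.17, edgeR adjusted p = 0.981). Slc7a2, which encodes CAT-2, stood at 36.7, 47.9 and 50.1 CPM in the knockout-labelled group, against 59.0, 51.7 and 46.6 CPM in the wild type. It had a difference of -0.22 on the log2 scale (SE 0.16, edgeR adjusted p = 0.565), and with the epithelial covariate it was -0.52. Slc7a1 lies on chromosome 5, at 148327410 to 148399904 on the minus strand. Slc7a2 lies on chromosome 8, at 40862396 to 40922308 on the plus strand, where 6.95% of its exon length overlaps a noncoding gene on the other strand. Of the members it had the highest mean CPM. Per exon length it was above Slc7a1 in every library, at 1.57 to 1.91 times in knockout-labelled and 1.91 to 2.16 times in wild-type libraries.

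**Figure D4:**
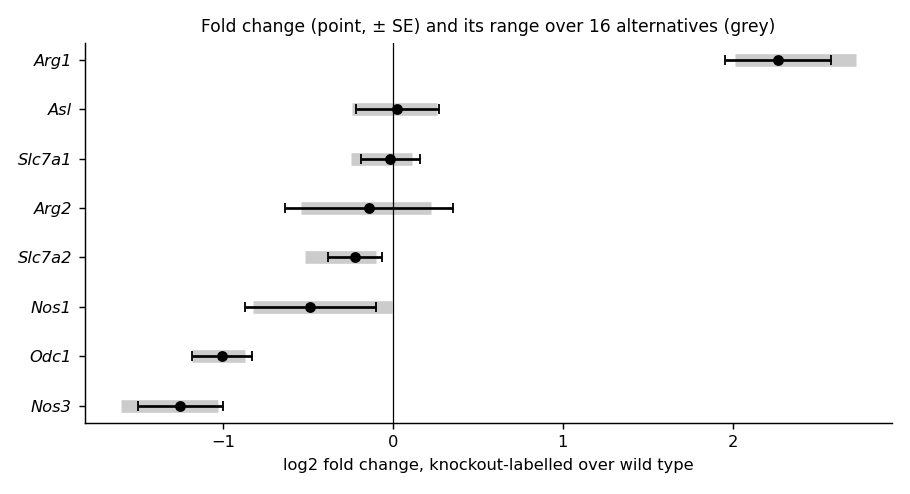
Log2 fold change (x axis, knockout-labelled over wild type) of the 8 tested members, as a point with its SE and a grey bar for the range over 16 alternative settings. Arg1 (2.27), Nos3 (-1.25) and Odc1 (-1.01) keep their sign in all of them, and the bars of Arg2, Asl and Slc7a1 cross 0.

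Per exon length, the order of the members differed between groups at its top. In the wild type Odc1 led at 18.6 ± 2.15 CPM per kb, followed by Nos3 (9.67 ± 1.44), Asl (6.99 ± 0.85) and Slc7a2 (5.74 ± 0.68), with Arg1 at 3.64 ± 1.74 (SD, n = 3 each). The ranges of Odc1 and Nos3 did not overlap in the wild type, and those of Asl and Slc7a2 did. In the knockout-labelled libraries Arg1 led at 17.5 ± 2.85 CPM per kb, followed by Odc1 (9.27 ± 1.95), Asl (7.10 ± 2.46), Slc7a2 (4.92 ± 0.79) and Nos3 (4.06 ± 1.49), where the last 4 overlapped with their neighbours (SD, n = 3 each). Within single libraries the level of Arg1 per length was 3.22 to 6.38 times that of Nos3 in the knockout-labelled group and 0.235 to 0.519 times in the wild type. The level of Odc1 was 0.401 to 0.631 times that of Arg1 in the knockout-labelled group and 2.96 to 8.81 times in the wild type. These ratios combine members that were listed with their differences known and are given without a test. Levels per length rest on GENCODE M21 exon lengths, whereas the annotation behind the counts is not given. Of the Nos3 exon length, 32.3% overlaps genes on the other strand, where reads cannot be assigned for certain. The place of Nos3 in these orders and its ratio to Arg1 are therefore uncertain.

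Among 14784 genes outside the list with a mean of at least 1 CPM, those whose log2 CPM followed Arg1 most closely over the 6 libraries were Stat3 (Pearson r = 0.99), Serpinb1a (0.99), Ptk2 (0.99), Lyn (0.99) and Tor1aip2 (0.98). Of these, Serpinb1a stood at 21.5 to 27.8 CPM in knockout-labelled and 5.70 to 10.9 CPM in wild-type libraries, and Stat3 at 183 to 190 and 116 to 141 CPM. Among those closest to Slc7a2 were Nwd1 (0.99), Sfrp1 (0.99), Zhx3 (0.98) and Shprh (0.98). With 6 points that fall into the same groups and share library depth, such values describe likeness of pattern and nothing more.

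The wider pathway was followed in a list of 63 symbols of related genes, of which 60 have a row. The rest (Azin2, Gucy1a1 and Gucy1b1) are newer names of the listed Adc, Gucy1a3 and Gucy1b3, so no listed gene is missing. Of the 60 genes 51 were tested. Of these 0 were called in edgeR's quasi-likelihood test, where 0.0506% of all genes were. At an unadjusted p under 0.05 there were 9, 5 of them above 0 and 4 below, where 14.2% of all genes passed, and the groups did not overlap for 15 of 51, where 20.0% of all genes did not overlap. The median log2 fold change of the list was -0.04. DESeq2 called 4 of them, Slc6a14, Ddah2, Sat1 and Dynll1, where it called 3.25% of all genes, and the edgeR exact test called Slc6a14 and Ddah2, where it called 2.26%.

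In arginine transport, Slc6a14, a carrier of neutral and cationic amino acids in mucosal epithelia, stood at 71.1, 141 and 134 CPM in the knockout-labelled group, against 47.8, 14.8 and 27.4 CPM in the wild type. The groups did not overlap, at 1.94 on the log2 scale (SE 0.40, edgeR adjusted p = 0.128), which was 1.01 with the epithelial covariate. The other 6 tested transporters of this group lay between -0.54 and 0.30. Slc7a7, which exports cationic amino acids, stood at 9.90 ± 1.23 and 12.9 ± 0.65 CPM (SD, n = 3 each).

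Of 12 tested regulators of the synthases and of arginine methylation, 6 lay above 0 and 6 below. Ddah2, which breaks down methylated arginines that inhibit nitric oxide synthases, stood at 64.8, 50.4 and 51.3 CPM in the knockout-labelled group, against 85.1, 109 and 81.5 CPM in the wild type. The groups did not overlap, and the log2 fold change was -0.73 (SE 0.16, edgeR adjusted p = 0.14), which was -0.46 with the epithelial covariate. Its relative Ddah1 was at 56.1 and 55.4 CPM, a log2 fold change of 0.02. Dynll1, a dynein light chain that binds Nos1 protein, stood at 117 ± 10.9 and 82.6 ± 9.18 CPM (SD, n = 3 each), which is 0.50 on the log2 scale (edgeR adjusted p = 0.18).

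Of the 6 genes for tetrahydrobiopterin, the cofactor that nitric oxide synthases need, 4 lay above 0 and 2 below. Spr, sepiapterin reductase, stood at 113, 47.0 and 54.5 CPM in the knockout-labelled group, against 121, 133 and 116 CPM in the wild type. Knockout-labelled animal 1 lay just under the wild type, and the log2 fold change of -0.79 (edgeR adjusted p = 0.275) was -1.28 without it (edgeR adjusted p = 0.0105). With the epithelial covariate it was -0.30 (edgeR adjusted p = 0.838). Gchfr, which restrains the first enzyme of that pathway, stood at 2.34 ± 1.45 and 0.544 ± 0.35 CPM (SD, n = 3 each), at 2.11 on the log2 scale (edgeR adjusted p = 0.287), and Gch1, that first enzyme, at 7.70 and 8.15 CPM. Of 7 tested genes downstream of nitric oxide, 3 lay above 0 and 4 below. Gucy1a3, a subunit of its receptor guanylate cyclase, stood at 83.8 ± 12.7 and 110 ± 11.1 CPM (SD, n = 3 each), which is -0.40 on the log2 scale (edgeR adjusted p = 0.274). Prkg2, a cGMP-dependent kinase, stood at 1.85 ± 0.40 and 1.11 ± 0.48 CPM and overlapped.

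On the ornithine and polyamine side, 1 of 7 tested urea cycle and ornithine genes lay above 0 and 6 below, and 6 of 12 polyamine genes lay on either side. Oat, the mitochondrial enzyme that links ornithine to proline and glutamate and whose loss causes gyrate atrophy of the choroid and retina in humans, was the most abundant urea cycle and ornithine gene at 509 ± 43.6 and 415 ± 31.6 CPM (SD, n = 3 each). Its log2 fold change was 0.29 (SE 0.14, edgeR adjusted p = 0.378). Pycr1, of proline synthesis, stood at 2.03 ± 0.47 and 3.67 ± 1.12 CPM. The urea cycle genes Nags and Otc were at 0 in all libraries. Sat1, which acetylates polyamines for export or breakdown, stood at 159 ± 24.8 and 111 ± 9.98 CPM (SD, n = 3 each), which is 0.52 on the log2 scale (SE 0.15, edgeR adjusted p = 0.186). Oaz1, antizyme, which marks the Odc1 protein for breakdown, stood at 15.7 ± 2.10 and 9.92 ± 2.03 CPM (SD, n = 3 each, edgeR adjusted p = 0.25), but a pseudogene copy is annotated and its count is uncertain. Paox, a polyamine oxidase named after its values were seen, stood at 1.20 and 3.47 CPM, a log2 fold change of -1.52 (edgeR adjusted p = 0.286). Amd1 and Amd2, near-identical copies, are listed at 0 in all libraries.

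**Figure D5:**
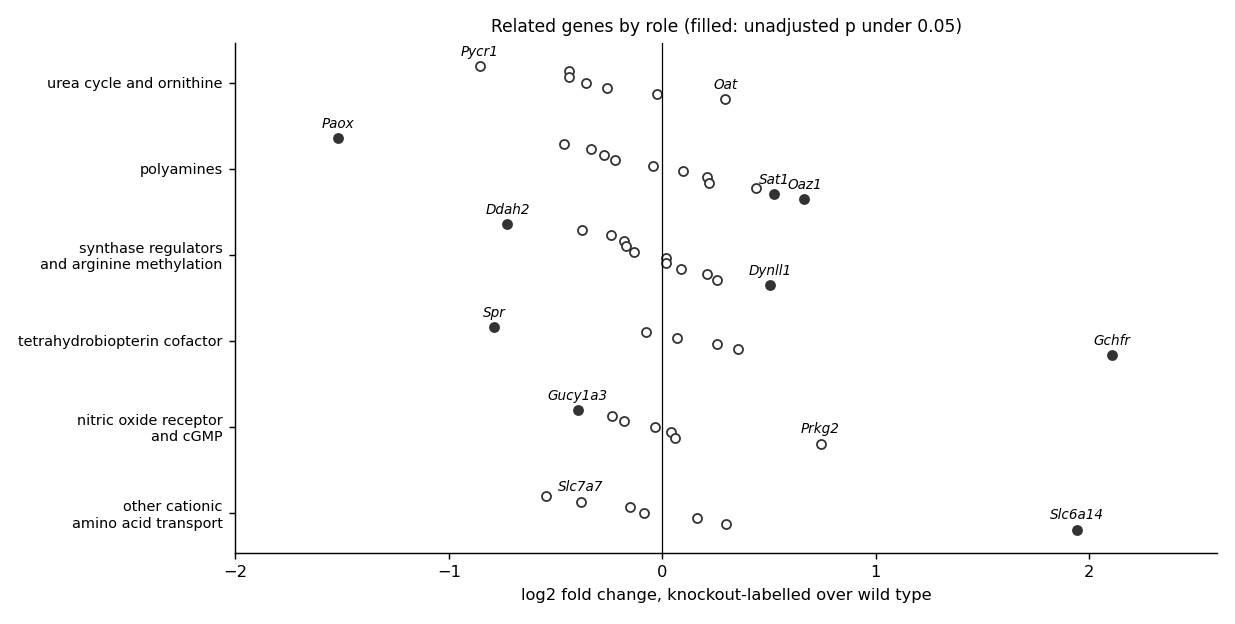
Log2 fold change (x axis, knockout-labelled over wild type) of the 51 tested related genes, in 6 groups by role, with filled points for an unadjusted p under 0.05. The 9 filled points lie on both sides of 0, from Paox at -1.52 to Gchfr at 2.11.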

How the data were processed

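The deposited table holds whole-number counts per gene and animal, made by the authors with TopHat and Bowtie on mm10 and HTSeq, per the submitters' processing notes. Tool versions, annotation and strand setting: not given in the sources used here. The authors' second deposited table gives edgeR log2 fold changes (wild type over knockout, sign turned here) with p-values and FDR. Library sizes and tests leave out the 5 tally rows. Of all entries in a library's column, tally rows included, 14.4% to 16.8% fell on no gene.

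The quasi-likelihood test of edgeR 4.0.16 (R 4.3.3) compared genotypes without a covariate, after TMM scaling and filterByExpr at a count of 10 and a total of 15. Benjamini-Hochberg adjustment covered every tested gene. The SE is the absolute log2 fold change over the square root of F. CPM uses TMM-adjusted library sizes. Exon lengths, overlaps and coordinates are from GENCODE M21 (GRCm38), and promoters from RefSeq. The fit was run on simulated counts with the same spread for every gene, a simpler setting than these libraries, so that run does not give the error rate here. Members and gene lists were chosen with earlier results of these data known. Named are all members, per role group the 2 related genes with the smallest p, and the 5 genes most like Arg1 and Slc7a2, of which 1 is not reported here. Paox, Ddah1, Gch1 and the genes at 0 were added after their values were seen. Counting noise did not account for the difference within any of 15 library pairs (chi-square test on the counts). In that test knockout-labelled animal 1 lay farther from animals 2 and 3 of its group than from any wild-type animal. Its chi-square per degree of freedom was 114 and 93.1, against 63.7 to 67.3. The labels list separate animals, so p-values measure the spread between them.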

Additional observations from a re-analysis of the deposited data

How the results depend on the processing

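With 3 animals per group, the number of calls depended on the settings far more than the fold changes did. All genes called numbered 8 with edgeR's quasi-likelihood test, 15 with upper-quartile factors, 22 with no filter beyond 1 count, 16 with a filter of 1 CPM in 3 libraries, 493 with DESeq2 1.42.0, 13 with limma-voom 3.58.1, 357 with the edgeR exact test, 18 with the epithelial covariate and 4 with the GC correction. Leaving out 1 library gave 0 to 795 genes, 0 to 3 members and 0 to 4 related genes, with the highest counts without knockout-labelled animal 1. Members called numbered 1 with upper-quartile factors, without a filter, with the 1 CPM filter and with limma-voom, and 3 with DESeq2 and the exact test. Related genes called numbered 4 with DESeq2 and 2 with the exact test. With 0 members called, 3 had an unadjusted p under 0.05 in the quasi-likelihood test, and 9 related genes did.

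The animal number as a replicate block gave 1 call over all genes, 0 among members and 0 among related genes, and with this block the log2 fold change of Asl was -0.028. Deviations of same-numbered libraries from their group means correlated at -0.07 to -0.05, and no library correlated best with its own number. With 3 such pairs, and deviations that sum to 0 within each group, this check cannot exclude a small effect shared by number.

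The log2 fold changes of Arg1, Nos3, Odc1, Nos1 and Slc7a2 kept their sign in all 16 alternatives. The sign turned for Arg2 (0.07 when knockout-labelled animal 1 was left out, 0.23 when wild-type animal 3 was), for Slc7a1 (0.06 when knockout-labelled animal 1 was left out, 0.11 when wild-type animal 1 was) and for Asl (-0.24 when knockout-labelled animal 3 was left out, -0.09 when wild-type animal 3 was). Leaving out libraries moved Nos1 over -0.82 to -0.18, Slc7a2 over -0.32 to -0.10, Asl over -0.24 to 0.26, Arg2 over -0.54 to 0.23 and Slc7a1 over -0.16 to 0.11. The cause was not tested. Ass1 and Nos2 had at most 20 counts in any library and did not pass the filter.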
